A study of Mus musculus with 9 samples.

Results

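The unfolded protein response and the ATF4 response were followed through 35 genes, taken by symbol from the 54281 genes quantified in Comma-1D cells. They form an ATF4 amino-acid branch of 21 genes and an ER chaperone branch of 14 genes. They were named by symbol with no threshold on a value, but with earlier results of these data known. Shares of all genes set beside counts of members are therefore descriptive only. All 35 were among the 23834 genes that passed the filter on low counts and were tested. Comma-1D is an immortalised mouse mammary epithelial cell line. RNA was sequenced in bulk from 3 sorted populations of the line, and each population had 1 library of cells transduced with an activated MYC oncogene, 1 of cells transduced with an activated Her2 oncogene and 1 control library. The populations were named for 2 surface proteins: B cells were high in Sca-1 and low in EpCAM, L cells were low in Sca-1 and high in EpCAM, and bi cells were high in both; B is the label of an epithelial population here and not a lymphocyte. The 9 libraries are therefore B MYC, B Her2 and B control, L MYC, L Her2 and L control, and bi MYC, bi Her2 and bi control. All were grown with serum, EGF and insulin. The labels do not say whether the control cells carried an empty vector, from which species the oncogenes came, or whether the libraries came from separate cultures, so the p-values measure the spread between these libraries only.

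Cells respond to misfolded protein in the endoplasmic reticulum (ER) through the sensors PERK, IRE1 and ATF6. PERK, together with kinases that sense amino acid shortage, haem loss or double-stranded RNA, phosphorylates eIF2α, which slows translation in general while the transcription factor ATF4 is made, and ATF4 switches on genes for amino acid synthesis, amino acid uptake and recovery of translation. IRE1, through spliced XBP1, and ATF6 switch on chaperones, disulfide isomerases and the machinery that removes misfolded protein. Secretory cells such as those of the mammary gland rely on this chaperone system.

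Depth ran from 46915316 reads in B MYC to 98874101 reads in bi control, as sums of the estimated counts. Levels are given as CPM, read counts divided by the library size with TMM factors and set to a common total; a level is compared between libraries for 1 gene, and not between genes, since CPM is not divided by transcript length. Erbb2, the gene of Her2, had 189 CPM in B Her2, 651 CPM in L Her2 and 235 CPM in bi Her2 cells, against 53.3, 88.9 and 82.3 CPM in their controls. Myc had 285, 207 and 188 CPM in the MYC libraries of B, L and bi cells, against 114, 83.3 and 92.6 CPM in their controls. Epcam was at 331 to 610 CPM in L libraries, 252 to 336 CPM in bi libraries and 0.183 to 0.764 CPM in B libraries, in the order of the sort. Ly6a, the gene of Sca-1, followed the sort less closely. It had 112, 19.5 and 57.8 CPM in B MYC, B Her2 and B control cells. In bi cells it had 139, 15.9 and 18.4 CPM, and in L cells 12.8, 2.37 and 6.53 CPM, in the same order of arms. B Her2, bi Her2 and bi control thus lay nearer to L MYC than to B control. The 5 luminal markers summed to 914 to 2150 CPM in L, 561 to 658 CPM in bi and 1.9 to 5.29 CPM in B libraries. The 5 fibroblast markers summed to 18 to 18.6 CPM in L, 22.5 to 38 CPM in bi and 84.4 to 148 CPM in B libraries, and the 5 basal markers to 1930 to 3990 CPM in L, 3970 to 5840 CPM in bi and 2190 to 4250 CPM in B libraries. Reads of rRNA-type genes made up 1.231% of the bi Her2 library and 0.569% to 0.71% of the other 8. The immune markers summed to at most 8.53 CPM, and the 3 endothelial markers summed to at most 5.4 CPM.

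The sequences around the members' start sites are shown first, since the branches are known for different DNA elements. ATF4, paired with C/EBP proteins, is known to bind the C/EBP-ATF response element, searched here as TGATGNAA, and ATF6 with NF-Y the ER stress element, searched as CCAAT followed after 9 bases by CCACG. RefSeq promoter windows of build GRCm38.p6, running from 250 bases before to 50 bases after the start, were held for 19 of the 21 ATF4-branch genes and 13 of the 14 ER-branch genes. Both strands were searched. A C/EBP-ATF response element lay in the windows of 5 ATF4-branch genes (Asns, Chac1, Nupr1, Slc7a11 and Trib3) and 1 ER-branch gene (Herpud1), and in 4.51% of the 27025 genes with windows. An ER stress element lay in the windows of 6 ER-branch genes (Calr, Creld2, Dnajc3, Hsp90b1, Hspa5 and Pdia6), in no ATF4-branch window and in 0.137% of genes with windows. ER stress element II, searched as ATTGG followed after 1 base by CCACG, lay in the Herpud1 window and in 0.0444% of genes. The UPR element TGACGTGG lay in no member's window and in 0.714% of genes, and TGATGCAAT, a longer form of the first element, lay in the Nupr1 window and in 0.222% of genes. The stretches of 7 members whose levels are given by library follow, each trimmed to at most 40 bases either side of its matches, 5′ to 3′ on the strand of the gene, with the matched letters in capitals. Chac1 lies at chr2:119351009-119351096 (+ strand) and Trib3 at chr2:152344011-152344086 (− strand), each with 1 C/EBP-ATF response element read on the strand opposite to the gene. Calr lies at chr8:84847035-84847133 (− strand), Creld2 at chr15:88819480-88819578 (+ strand), Hsp90b1 at chr10:86705493-86705694 (− strand, 2 matches) and Hspa5 at chr2:34771985-34772083 (+ strand), all with the ER stress element. Herpud1 lies at chr8:94386277-94386427 (+ strand) and shows the C/EBP-ATF response element first and ER stress element II second.
Chac1: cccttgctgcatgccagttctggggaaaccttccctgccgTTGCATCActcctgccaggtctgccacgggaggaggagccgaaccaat
Trib3: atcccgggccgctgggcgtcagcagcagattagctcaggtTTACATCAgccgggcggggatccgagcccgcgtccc
Calr: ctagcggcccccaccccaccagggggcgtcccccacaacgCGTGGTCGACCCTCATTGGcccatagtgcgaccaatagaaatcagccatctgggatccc
Creld2: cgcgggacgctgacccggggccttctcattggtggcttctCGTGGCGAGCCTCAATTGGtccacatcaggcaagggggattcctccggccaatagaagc
Hsp90b1: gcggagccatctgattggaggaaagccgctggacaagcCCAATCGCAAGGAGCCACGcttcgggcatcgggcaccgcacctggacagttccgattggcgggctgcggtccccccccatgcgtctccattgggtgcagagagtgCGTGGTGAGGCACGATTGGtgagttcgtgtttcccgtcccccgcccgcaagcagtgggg
Hspa5: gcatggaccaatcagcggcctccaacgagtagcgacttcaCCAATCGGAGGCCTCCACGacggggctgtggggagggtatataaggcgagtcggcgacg
Herpud1: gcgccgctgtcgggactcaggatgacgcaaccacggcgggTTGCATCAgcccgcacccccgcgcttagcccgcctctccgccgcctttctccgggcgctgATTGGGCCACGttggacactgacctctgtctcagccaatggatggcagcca
A match describes the letters of the window and shows no binding.

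Across the 9 libraries the branches peaked in different places. In bulk RNA, fewer cells of a type and less RNA per cell cannot be told apart. Of the 21 ATF4-branch genes, 14 had their highest level in B Her2 cells, against 11.7% of all 23834 genes tested, and only 1 of the 14 ER-branch genes did. Of the 14 ER-branch genes, 9 had their highest level in L Her2 cells, against 14.2% of all genes tested, and 2 of the 21 ATF4-branch genes did. Each gene's log2 CPM was also set against its own mean over the 9 libraries. On that scale the median ATF4-branch gene stood 1.31 above its mean in B Her2 cells and between −0.50 and 0.26 in the other 8 libraries. The median ER-branch gene stood at −0.41 to −0.48 in the 3 MYC libraries, at 0.37 in L Her2, 0.38 in bi Her2 and −0.29 in B Her2 cells, and at 0.03 to 0.34 in the controls. The range from the lowest to the highest library was widest for Stc2, at 179-fold, then Trib3 at 26.9-fold and Chac1 at 12.8-fold, and narrowest for Sel1l at 1.53-fold and Edem1 at 1.59-fold. The lowest library for Stc2, B control, held 4 reads of that gene.

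**Figure D1:**
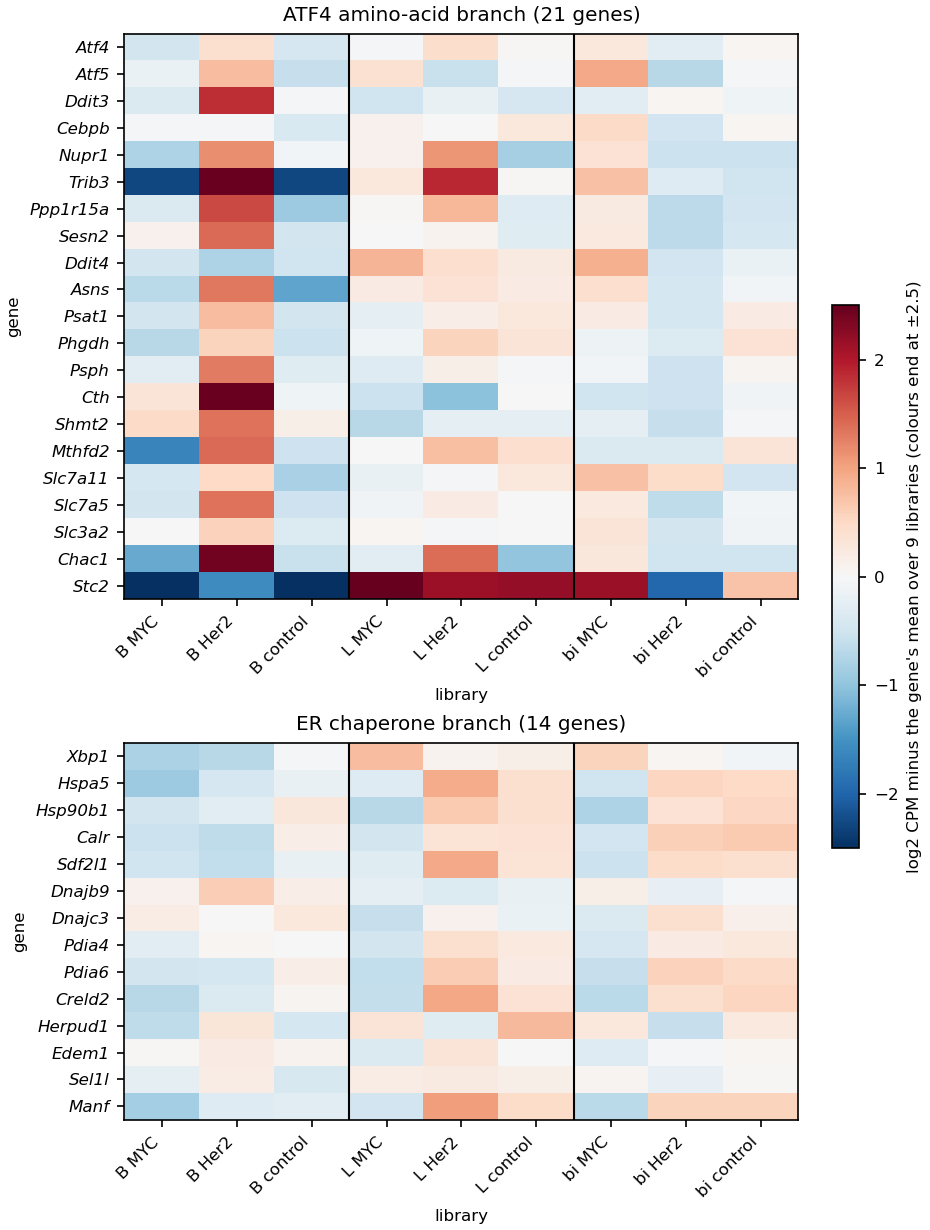
Heat map of log2 CPM minus each gene's mean over the 9 libraries, with 1 column per library (B, L and bi cells, each as MYC, Her2 and control) and 1 row per member, for the 21 ATF4-branch genes above and the 14 ER-branch genes below. The B Her2 column is dark red for most ATF4-branch genes, and the 3 MYC columns are blue for most chaperones from Hspa5 to Manf.

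With MYC, most chaperones and disulfide isomerases of the ER stood at lower levels in every population, while the ATF4 branch had no common direction. The arms were compared with edgeR's quasi-likelihood test on all 9 libraries, with population and arm as terms. The 3 populations thus served as blocks (n = 3 libraries per arm), with no replicate of any population and arm. The residual spread therefore holds differences between populations in the effect of an arm. A difference confined to 1 population widens that spread, in the comparisons of both oncogenes. With p-values adjusted over all 23834 genes and a threshold of 0.05, none of the 35 members passed in MYC against control, where 0.101% of all genes rose and 0.264% fell. At an unadjusted p under 0.05 there were 9 members, 8 of them lower ER-branch genes and 1 a higher ATF4-branch gene. Of all 23834 genes tested, 3317 were under it, 1743 lower and 1574 higher. DESeq2 on the same counts called 966 genes, where edgeR called 87. Of these 966, 5 were members, and all 5 (Hspa5, Hsp90b1, Calr, Creld2 and Manf) fell. Without the B Her2 library, which is in neither arm but shares in the estimate of the spread, edgeR called 492 genes. Among them were 3 members, Hsp90b1, Creld2 and Manf, and all 3 fell (Manf with an adjusted p that rounds to 0.05). Basal markers summed to 3980, 1930 and 5840 CPM in the MYC libraries of B, L and bi cells, against 4250, 3990 and 4680 CPM in their controls, and their part in the result was not tested.

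Hsp90b1, the ER member of the Hsp90 family, had 525, 445 and 420 CPM in the MYC libraries of B, L and bi cells, against 880, 947 and 1030 CPM in the controls. Every MYC library lay below every control library. The log2 fold change was −1.03 ± 0.24 (SE) with an edgeR adjusted p of 0.088.
Manf, a small secreted protein induced by ER stress, had 41, 53.1 and 46.4 CPM with MYC in B, L and bi cells, against 60.8, 102 and 109 CPM in control cells. Its MYC libraries were again all lower than its controls, by −0.91 ± 0.21 on the log2 scale (edgeR adjusted p = 0.0925). The Manf gene model overlaps Rbm15b on the same strand.
Creld2, an ER disulfide isomerase, had 16, 17.2 and 16.2 CPM in MYC cells of B, L and bi, against 27.2, 33.5 and 37.5 CPM in controls. These groups did not overlap either, and the log2 fold change was −0.97 ± 0.24 (edgeR adjusted p = 0.105).
Hspa5, the chaperone BiP that also holds the sensors inactive, had 283, 429 and 379 CPM with MYC in B, L and bi cells, against 467, 702 and 750 CPM without it. The fold change was −0.81 ± 0.20 on the log2 scale (edgeR adjusted p = 0.11), and all MYC libraries lay below all controls.
Calr, the lectin chaperone calreticulin, had 407, 428 and 423 CPM in the MYC libraries and 658, 753 and 932 CPM in the control libraries of B, L and bi cells. The MYC values were close to one another and all below the controls, and the log2 fold change was −0.87 ± 0.23 (edgeR adjusted p = 0.125).

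In all, 8 of the 14 ER-branch genes had their 3 MYC libraries below their 3 controls, against 7.02% of all genes tested. These were the 5 above with Sdf2l1, a partner of ER chaperones, and the disulfide isomerases Pdia4 and Pdia6. Sdf2l1 averaged 13.4 ± 1.19 CPM with MYC and 21 ± 4.3 CPM in controls, Pdia4 156 ± 11.5 and 229 ± 23.8 CPM, and Pdia6 129 ± 7.24 and 231 ± 28.3 CPM (SD, n = 3 each). No ER-branch gene had its MYC libraries all above its controls. The other 6 were the regulator Xbp1, the co-chaperones Dnajb9 and Dnajc3, and Herpud1, Edem1 and Sel1l of ER-associated degradation. Their log2 fold changes ran from −0.31 for Dnajc3 to 0.17 for Xbp1, and the MYC and control libraries overlapped for each of them. Xbp1 had 36.2 CPM in B MYC cells against 59.9 CPM in B control cells, but 106 and 91 CPM in L MYC and bi MYC cells against 69.4 and 59.4 CPM in their controls.

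**Figure D2:**
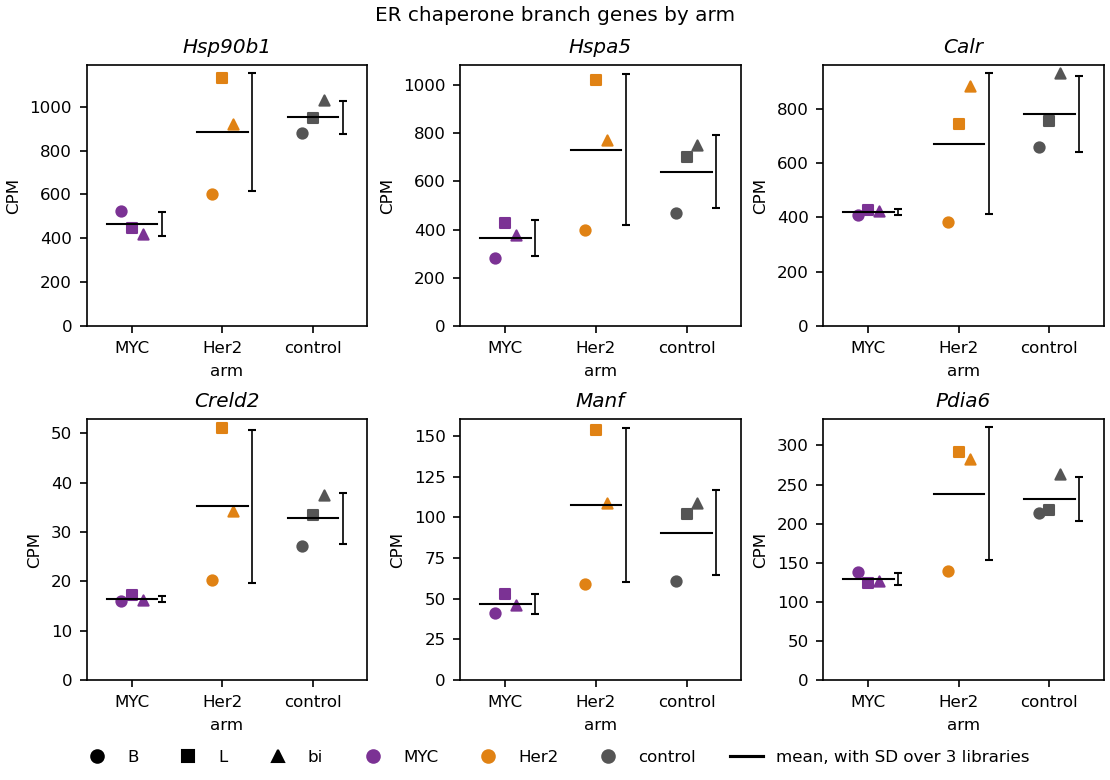
CPM of 6 ER-branch genes by arm (MYC, Her2, control), 1 point per library with the shape giving the population (circle B, square L, triangle bi); lines are means and bars SD over 3 libraries. All 3 MYC points lie below all 3 control points for each gene, and the Her2 points spread widest, with B Her2 lowest and, except for Calr, L Her2 highest.

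The median log2 fold change of MYC against control was −0.58 over the ER branch and 0.27 over the ATF4 branch, beside 0.03 over all genes tested. By population, single MYC libraries against their controls gave ER-branch medians of −0.44 in B, −0.67 in L and −0.82 in bi cells. The ATF4-branch medians were 0.06, −0.06 and 0.42 in B, L and bi cells, and without the bi MYC library the fitted ATF4-branch median was −0.22. A log2 ratio of at least 1 in a single library marked no ER-branch gene in B MYC cells (of all genes, 4.43% were that far higher and 11.7% that far lower), Hsp90b1 as lower in L MYC cells (7.65% of all genes higher, 3.84% lower) and Hsp90b1, Calr, Pdia6, Creld2 and Manf as lower in bi MYC cells (8.86% of all genes higher, 6.29% lower). Among the ATF4-branch genes, Stc2 was that far higher in B MYC and L MYC, Mthfd2 that far lower in B MYC, and Trib3, Slc7a11, Ddit4, Atf5 and Stc2 that far higher in bi MYC cells. The Stc2 ratio in B cells rests on 10 reads with MYC and 4 in the control.

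Of the ATF4 branch, 2 of 21 genes had all MYC libraries above all controls, against 7.36% of all genes tested: Sesn2, a stress protein that restrains mTORC1, and Slc3a2, the shared heavy chain of several amino acid transporters. Ddit4, another mTORC1 inhibitor, was the 1 member higher at an unadjusted p under 0.05. It had 104, 260 and 265 CPM with MYC in B, L and bi cells, against 101, 167 and 128 CPM in controls. L MYC and bi MYC were the highest of the 9 libraries, while B MYC matched its control to within 0.04 on the log2 scale, and the fold change was 0.60 ± 0.23 (edgeR adjusted p = 0.279). Atf5, an ATF4-related transcription factor, had 45.8, 66.1 and 98.3 CPM in MYC libraries of B, L and bi cells, against 34.3, 49.3 and 49.1 CPM in controls, and each MYC library was above its own control although the groups overlapped (0.65 ± 0.41, edgeR adjusted p = 0.542). Without the bi MYC library, the log2 fold change was 0.23 for Atf5 and 0.31 for Ddit4, and without B control that of Atf5 was 0.39 and without B MYC 1. Of the serine and one-carbon enzymes, Phgdh, the first enzyme of serine synthesis, was at −0.38 ± 0.29 and Mthfd2, a mitochondrial folate enzyme, at −0.68 ± 0.47 on the log2 scale. Of the others, Shmt2 was higher in B cells and lower in L and bi cells, while Psph and Psat1 were near control or lower. Ratios of single MYC libraries to control in B, L and bi cells were 0.33, −0.46 and −0.18 for Shmt2. They were 0.02, −0.28 and −0.13 for Psph, and −0.01, −0.49 and 0 for Psat1. None of these enzymes had an unadjusted edgeR p under 0.05.

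With Her2, ATF4-branch genes stood far above control in B cells, in part in L cells and not in bi cells, while the ER branch differed little from control on average. No member passed edgeR's adjusted threshold in Her2 against control, in which 0.0126% of all genes tested rose and 0.00839% fell. At an unadjusted p under 0.05 there were 5 members, all of them higher ATF4-branch genes (Chac1, Trib3, Ppp1r15a, Nupr1 and Ddit3), beside 2097 of all 23834 genes. Of these 2097 genes, 965 were higher. DESeq2 called 509 genes, and 1 member among them, Ppp1r15a, rose. Without the bi Her2 library edgeR called 1 member, Chac1, which rose. This comparison uses the same 3 control libraries as the one with MYC.

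Chac1, an enzyme that degrades glutathione, had 54.2, 26.6 and 7.2 CPM with Her2 in B, L and bi cells, against 6.87, 5.15 and 7.18 CPM in controls. The B and L libraries were high and the bi library exceeded its control by 0.01 on the log2 scale, so the groups did not overlap, though by a small margin. The fold change was 2.11 ± 0.64 (SE, log2) with an edgeR adjusted p of 0.301. Chac1 was the only ATF4-branch gene whose Her2 libraries were all above its controls, against 3.07% of all genes tested, and no member had them all below (3.54% of all genes).
Trib3, a pseudokinase that feeds back on ATF4 and CHOP, had 108, 71.7 and 15.5 CPM with Her2 in B, L and bi cells, against 4.03, 20 and 13.8 CPM in controls. The bi Her2 library lay among the controls, and the log2 fold change was 2.74 ± 0.92 (edgeR adjusted p = 0.355).
Ppp1r15a, the GADD34 subunit that directs dephosphorylation of eIF2α, had 101, 57.1 and 20.6 CPM in Her2 cells of B, L and bi, against 17.1, 25.8 and 23.3 CPM in control cells. B Her2 and L Her2 were the highest of the 9 libraries and bi Her2 was below its own control (1.33 ± 0.47, edgeR adjusted p = 0.398). Without the B Her2 library the log2 fold changes were 1.11 for Chac1, 1.05 for Trib3 and 0.56 for Ppp1r15a.

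**Figure D3:**
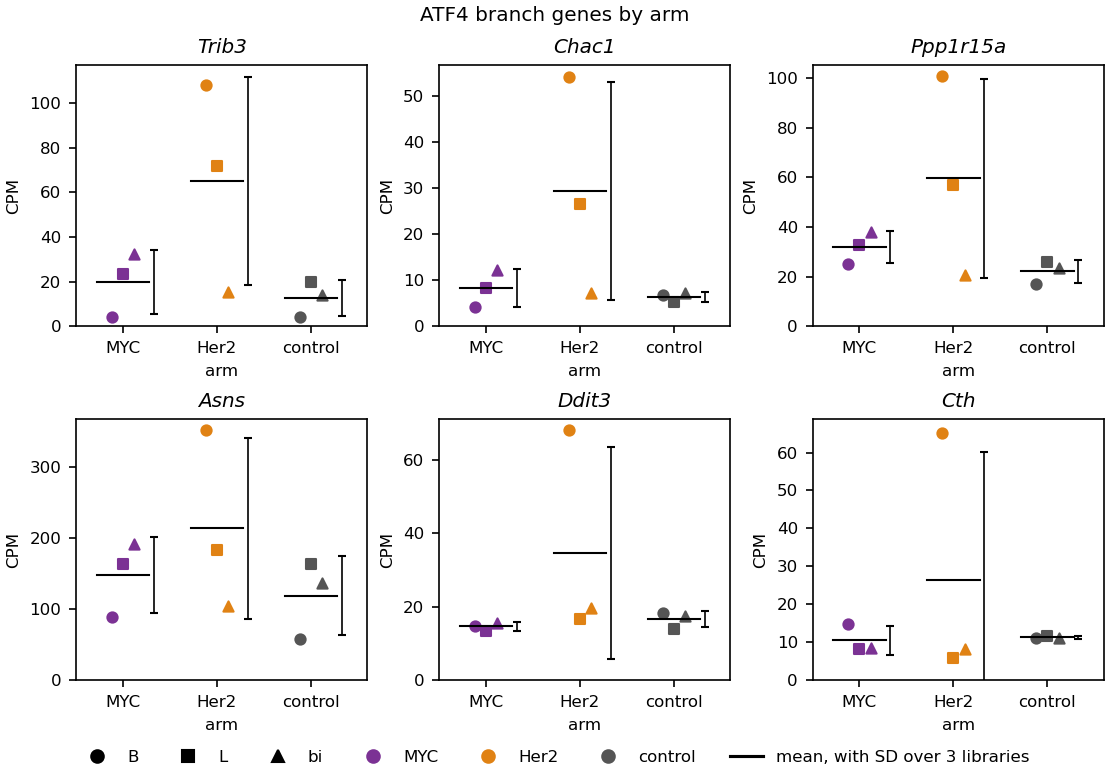
CPM of 6 ATF4-branch genes by arm (MYC, Her2, control), 1 point per library with the shape giving the population (circle B, square L, triangle bi); lines are means and bars SD over 3 libraries, with the bar of Cth ending at the axis. The B Her2 circle is the highest point in each panel, and the bi Her2 triangle lies within or near the controls. Asns, Ddit3 and Cth were added to the plot after their values were seen.

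In B cells, 17 of the 21 ATF4-branch genes were higher with Her2 than in the control by a log2 ratio of at least 1, beside 5.22% of all genes, and none was that far lower, beside 11.7% of all genes. Of the 17, Stc2 rests on 24 reads in B Her2 and 4 in B control cells. The branch median was 1.60, and 20 of the 21 ratios were positive, all but that of Ddit4 at −0.26. The 4 genes short of 1 were Atf4 at 0.82, Slc3a2 at 0.91, Cebpb at 0.36 and Ddit4. Among regulators the ratio was 4.74 for Trib3, 1.89 for Ddit3, the transcription factor CHOP, and 1.87 for Sesn2. Among the enzymes it was 2.63 for Asns, the asparagine synthetase, with 352 CPM in B Her2 against 57 CPM in B control cells. It was 2.56 for Cth, which makes cysteine from cystathionine, at 65.2 against 11 CPM. The serine pathway followed, with Psph at 1.60, Psat1 at 1.23 and Phgdh at 1.10, and the one-carbon enzymes with Mthfd2 at 1.92 and Shmt2 at 1.22. The transporters Slc7a5, for large neutral amino acids, and Slc7a11, for cystine, stood at 1.88 and 1.31. None of the 14 ER-branch genes reached a ratio of 1 in either direction in B Her2 cells, and their median was −0.24, from −0.78 for Calr to 0.75 for Herpud1. These are 2 libraries compared with each other, with no replicate. The 5 basal markers summed to 2190 CPM in B Her2 and 4250 CPM in B control cells, and the 5 fibroblast markers to 84.4 and 110 CPM. These sums cover larger differences in single markers. The basal marker Acta2 had 15.5 CPM in B Her2 and 262 CPM in B control cells. Of the fibroblast markers, Col1a1 was lower, at 2.38 against 36.3 CPM, and Dcn was higher, at 25.5 against 1.23 CPM. B MYC cells differed from B control in the same directions, with Acta2 at 111, Col1a1 at 4.73 and Dcn at 25 CPM. The part of these markers in the result was not tested.

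In L cells with Her2, 4 ATF4-branch genes were at least 1 log2 unit above control (6.92% of all genes were) and 1 was that far below (6.17% of all genes). The 4 were Chac1 at 2.36, Nupr1, a stress-induced chromatin protein, at 1.92, Trib3 at 1.84 and Ppp1r15a at 1.14, and the lower one was Cth at −1.01. The amino acid enzymes and transporters otherwise lay between −0.30 for Slc7a11 and 0.33 for Mthfd2. Of the ER branch, Herpud1 alone was that far from control, at −1.12, and the median was 0.27. Luminal markers summed to 2150 CPM in L Her2 and 914 CPM in L control cells, and basal markers to 2340 and 3990 CPM, and their part was not tested. In bi cells with Her2 no member was at least 1 log2 unit above control (9.62% of all genes were) and 1 was that far below (3.99% of all genes), the secreted glycoprotein Stc2 at −2.58, with 31 reads in bi Her2 and 213 in bi control cells. The ATF4-branch median in bi cells was −0.39, with 16 of 21 genes below their control, and the ER-branch median was −0.07. The highest ratio of a member in bi cells was that of Slc7a11, at 0.94, with 238 CPM in bi Her2 and 125 CPM in bi control cells. The bi Her2 library is the one with 1.231% of rRNA-type reads, and its part in these values was not tested.

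**Figure D4:**
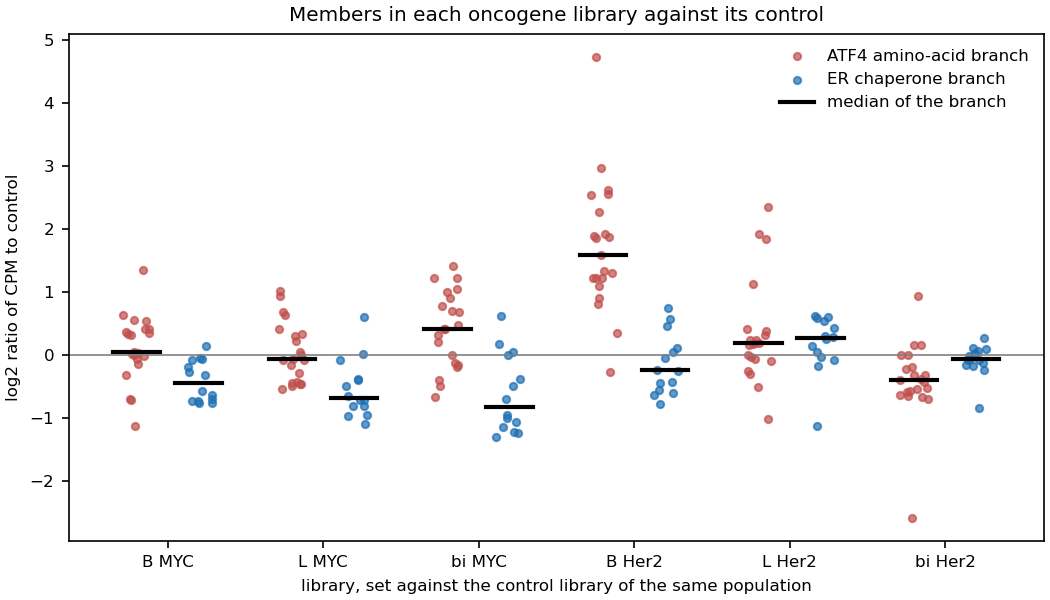
Log2 ratio of CPM in each oncogene library to the control library of the same population, 1 point per member with ATF4-branch genes in red and ER-branch genes in blue; black lines are branch medians. The ATF4 branch stands highest in B Her2 (median 1.60) and lowest in bi Her2 (median −0.39), and the ER branch lies below 0 in all 3 MYC libraries (medians −0.44 to −0.82).

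Over the 3 populations the median log2 fold change of Her2 against control was 0.47 for the ATF4 branch and 0.05 for the ER branch, beside −0.01 over all genes tested. Leaving out 1 library at a time moved the ATF4-branch median between −0.14, without B Her2, and 0.94, without bi Her2. The ER-branch genes with the smallest unadjusted p were Calr, Herpud1 and Manf, at −0.27 ± 0.23, −0.34 ± 0.35 and 0.20 ± 0.21 (SE, log2, edgeR adjusted p from 0.911 to 0.949). Herpud1, a membrane protein of ER-associated degradation, had 56, 36.6 and 30.5 CPM with Her2 in B, L and bi cells, against 33.3, 79.7 and 54 CPM in controls, so it was higher in B Her2 cells and lower in the other two. Calr had 382, 745 and 885 CPM in the Her2 libraries, and B Her2 was its lowest of all 9. Manf had 59.3, 154 and 109 CPM with Her2, with L Her2 its highest of all 9.

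Between the oncogenes, most ER chaperones stood lower with MYC than with Her2 in L and bi cells, and directions were mixed in B cells. Of the 35 members 3 fell and none rose, beside 2.13% and 2.44% of all genes tested, and all 3 were ER-branch genes. Manf fell by 1.10 ± 0.21 (SE, log2, edgeR adjusted p = 0.0231), Hspa5 had −0.93 ± 0.20 (adjusted p = 0.0341) and Creld2 −1.02 ± 0.24 (adjusted p = 0.0466). Hspa5 had 283, 429 and 379 CPM with MYC in B, L and bi cells, against 399, 1020 and 770 CPM with Her2. The L MYC library exceeded B Her2, so these groups overlapped, whereas those of Manf and Creld2 did not. Creld2 had 20.2, 51.1 and 34.2 CPM in Her2 libraries of B, L and bi cells, each above the 16 to 17.2 CPM of the MYC libraries. The calls rested on L and bi cells, where the 3 genes' log2 ratios ran from −1.02 to −1.57, whereas in B cells they ran from −0.34 to −0.53. Among the chaperones and their partners in B cells, Hspa5, Hsp90b1 and Dnajb9 were lower with MYC than with Her2. Calr, Sdf2l1 and Dnajc3 were higher there, at 407, 12.9 and 92.9 CPM against 382, 11.9 and 82.6 CPM. All 3 calls were lost without L MYC, without L Her2 or without bi MYC. Without L control or without bi control 1 member, Manf, still fell, and without bi Her2 the 1 call was Chac1, which fell. Without B Her2 there were 7 calls, with Atf5 higher and Hspa5, Hsp90b1, Sdf2l1, Pdia6, Creld2 and Manf lower.

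The ER-branch median of MYC against Her2 was −0.60 and the ATF4-branch median −0.51, beside 0.02 over all genes. Without B Her2 the ATF4-branch median was 0.10, without B MYC −0.17, without bi MYC −0.79 and without bi Her2 −1.01, so its sign rested on B Her2. For the ER branch the medians by population were −0.25, −0.83 and −0.88 in B, L and bi cells. For the ATF4 branch they were −1.31, −0.30 and 0.79, with opposite signs in B and bi cells. Of the ER branch, 5 of 14 genes had the MYC libraries all below the Her2 libraries, beside 7.19% of all genes (Hsp90b1, Pdia4, Pdia6, Creld2 and Manf), and of the ATF4 branch 1 of 21 did (Ddit3). No member had them all above (6.58% of all genes). At an unadjusted p under 0.05 there were 13 members, 9 of them lower ER-branch genes and 3 lower ATF4-branch genes, while Ddit4 was higher at 0.72 ± 0.23. Of all 23834 genes tested, 4562 were under it, 2081 lower and 2481 higher.

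Between the sorted populations, L cells had more Stc2, Ddit4, Xbp1, Hspa5 and Manf RNA than B cells and less Shmt2 RNA. All 5 fibroblast markers fell in L against B as well, with a median of −2.55 on the log2 scale, all 5 luminal markers rose and 2 basal markers fell, and their part in the members' values was not tested. Arm was a term of the same edgeR fit, with 3 libraries per population. In L against B, 5 members rose and 1 fell, beside 11.5% and 9.26% of all 23834 genes, and the share of members that rose stands near that of all genes. Stc2 had 12.7, 6.04 and 6.28 CPM in the MYC, Her2 and control libraries of L cells, against 0.229, 0.46 and 0.071 CPM in those of B cells. The B values rest on 10, 24 and 4 reads, so the fitted fold change of 4.89 ± 0.86 (log2, edgeR adjusted p = 0.00323) carries that counting error. Ddit4 had 260, 191 and 167 CPM with MYC, with Her2 and in control L cells, against 104, 84.5 and 101 CPM in B cells, with no overlap (1.06 ± 0.23, edgeR adjusted p = 0.00971).
Hspa5 rose by 0.85 ± 0.20 (edgeR adjusted p = 0.0157), with 718 ± 297 CPM in L and 383 ± 93.2 CPM in B libraries (SD, n = 3 each). Manf rose by 0.83 ± 0.21 (edgeR adjusted p = 0.0217), with 103 ± 50.5 and 53.7 ± 11.1 CPM. Both overlapped between populations, with L MYC below B control. Xbp1, the factor spliced by IRE1, had 106, 65.9 and 69.4 CPM with MYC, with Her2 and in control L cells, against 36.2, 38.7 and 59.9 CPM in B cells (0.81 ± 0.25, edgeR adjusted p = 0.0489), and every L library was above every B library.
Shmt2, the mitochondrial serine hydroxymethyltransferase, had 145, 201 and 199 CPM with MYC, with Her2 and in control L cells, against 328, 606 and 261 CPM in B cells. All L libraries were below all B libraries, and Shmt2 fell by 1.10 ± 0.29 on the log2 scale (edgeR adjusted p = 0.026).

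The B Her2 library bore on these values. Without it, Shmt2, Xbp1, Hspa5 and Manf lost their calls, while Trib3, Asns, Mthfd2 and Herpud1 rose along with Stc2 and Ddit4. The ATF4-branch median of L against B was −0.05 with that library and 0.61 without it, and that of the ER branch was 0.36 with it. In single pairs the ATF4 medians were 0.39, −0.66 and 0.52 with MYC, with Her2 and in control cells, and the ER medians 0.09, 0.84 and 0.23, so the branches had opposite signs with Her2. The median over all genes was 0.04. Without L Her2, 2 members stayed called, Ddit4 and Stc2. Over the 9 fits that leave out 1 library, Stc2 was called in 9, Ddit4 in 8 (lost without B MYC), Hspa5 in 7, Manf in 6, Shmt2 in 5 and Xbp1 in 2. Xbp1 kept its call without B control or bi control, with log2 fold changes of 0.49 to 1.17 over the 9 fits, and was at 0.49 without B MYC. Shmt2 ranged from −1.42 to −0.67 and lost its call without B MYC, L MYC, B Her2 or L Her2.

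**Figure D5:**
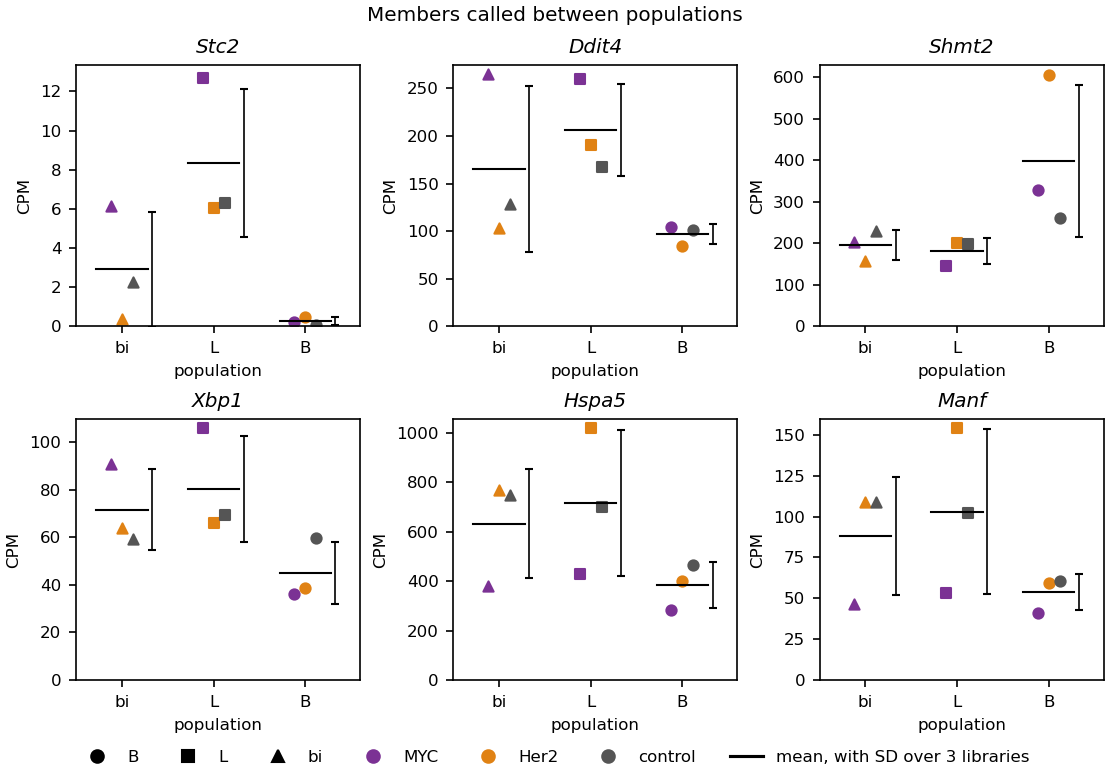
CPM of the 6 members called in L against B, by population (bi, L, B), 1 point per library with colour giving the arm (purple MYC, orange Her2, grey control); lines are means and bars SD over 3 libraries, with the bar of Stc2 in bi cells ending at the axis. L points lie above all B points for Stc2, Ddit4 and Xbp1 and below them for Shmt2, and the bi points of Stc2 run from 0.355 to 6.13 CPM.

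In bi against B, 1 member rose, beside 7.88% of all genes, and none fell, beside 5.11%. This was Stc2 at 3.11 ± 0.87 (log2, edgeR adjusted p = 0.0441), with 6.13, 0.355 and 2.27 CPM in the MYC, Her2 and control libraries of bi cells. The bi Her2 value lay within the B range, and the call was lost without L MYC, bi control, bi MYC, B control, B MYC or L Her2. Without B control the calls were Ddit4 and Xbp1, which rose, and Cth and Shmt2, which fell; without B Her2 they were Trib3, Asns, Stc2 and Herpud1, which all rose. Without B MYC the 1 call was Manf, and without L Her2 it was Hspa5, and both rose. The ATF4-branch medians were 0.71, −1.76 and 0.44 with MYC, with Her2 and in control cells. In bi against L no member passed (0.495% of all genes rose and 0.256% fell). With edgeR 1 member, Stc2, had an unadjusted p under 0.05 (−1.77 ± 0.72), beside 2061 of all 23834 genes. DESeq2 called no member and had 0 members at an unadjusted p under 0.05.

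Other genes of the same pathways were counted from 3 further lists, also chosen with earlier results of these data known. Of 30 other ATF4-linked genes, such as tRNA synthetases and further transporters, 20 were at least 1 log2 unit higher in B Her2 than in B control cells. Of all genes tested, 5.22% were that far higher. The median of the list was 1.29 in B cells, beside −0.04 over all genes, and the list medians were 0.41 in L and −0.31 in bi cells. With edgeR none of the 30 genes passed in MYC against control, where 4 had an unadjusted p under 0.05 and DESeq2 called Mthfd1l as lower. None passed in Her2 against control, where 5 had an unadjusted p under 0.05 and DESeq2 called Atf3 and Eif4ebp1 as higher. Of 22 other ER genes none passed with edgeR in either comparison. At an unadjusted p under 0.05 there were 8 with MYC, 6 lower and 2 higher, where DESeq2 called Hyou1 and Ssr1 as lower, and 2 with Her2, where DESeq2 called none. Of 11 genes of the sensors and their regulators none passed with edgeR, with 0 at an unadjusted p under 0.05 for MYC and 2 for Her2, and DESeq2 called none with MYC and Atf6 as higher with Her2. Of all 23834 genes, 3317 had an unadjusted edgeR p under 0.05 with MYC and 2097 with Her2. DESeq2 called 966 and 509 of all genes in these comparisons. The smallest unadjusted p over the 3 lists was that of Hyou1 with MYC (−0.81 ± 0.18, edgeR adjusted p = 0.0784) and of Atf6 with Her2 (0.95 ± 0.24, edgeR adjusted p = 0.192). Between the oncogenes, Hyou1, a large ER chaperone, had 139, 158 and 165 CPM with MYC in B, L and bi cells, against 225, 381 and 334 CPM with Her2, with no overlap (−0.99 ± 0.18, edgeR adjusted p = 0.0168). Vegfa, the angiogenic growth factor, fell by 1.11 ± 0.23 (adjusted p = 0.0285), and Mthfd1l, a mitochondrial folate enzyme, had −0.89 ± 0.20 (adjusted p = 0.0358). Hyou1, Vegfa and Mthfd1l were the only genes of the 3 lists called by edgeR between the oncogenes, where 2.44% of all genes rose and 2.13% fell. In L against B the ATF4-linked list had 2 genes that rose, Atf3 (2.53 ± 0.49) and the arginine and lysine transporter Slc7a3 (1.74 ± 0.44), and 2 that fell, Aldh1l2 (−2.07 ± 0.58) and Slc1a4 (−1.33 ± 0.21), beside 11.5% and 9.26% of all genes. Slc1a4 also fell in bi against B (−0.95 ± 0.20), the only gene of that list called there, beside 5.11% of all genes that fell. P4hb, the founding protein disulfide isomerase, rose in L against B by 1.44 ± 0.27 and in bi against B by 1.67 ± 0.27. Os9, a lectin of ER-associated degradation, fell in both, by 0.88 ± 0.16 and 0.93 ± 0.16. Ern1, the gene of IRE1, fell in L against B by 1.46 ± 0.17 and in bi against B by 0.92 ± 0.16 (edgeR adjusted p = 0.000266 and 0.00604), and Atf6b, a relative of Atf6, fell in L against B by 0.85 ± 0.16. These are the only genes of the ER and sensor lists called by edgeR in these comparisons. Both comparisons use the same B libraries.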

How the data were processed

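Gene-level tables, 1 per library, were deposited by the authors with estimated counts and TPM; per the submitters' processing notes they came from Salmon 0.9.1 and mm10. The transcript annotation is not given in the sources used here. Per the labels' protocols, stranded libraries were made from total RNA after ribosomal RNA depletion, although the molecule is labelled as polyA RNA. The deposited estimated counts were rounded to whole numbers, scaled by TMM and tested with edgeR 4.0.16 in R 4.3.3 (filterByExpr by arm, minimum count 10, minimum total 15; population and arm as terms; 4 residual degrees of freedom). Identifiers were matched to symbols in GENCODE vM21, 53544 with their version and 563 without it, and 174 were unmatched. Ddit3 had 2 identifiers, with 12599 and 228 reads over all libraries, and the larger was used; it overlaps the antisense gene Mars. The deposited TPM values served in an alternative with limma 3.58.1 on log2(TPM + pseudocount), and DESeq2 1.42.0 in another. Single-library log2 ratios used a prior count of 2. The members and gene lists were chosen with earlier results of these data known. CPM by library is given for members past the threshold in any of the 6 comparisons and for the 3 of each branch with the smallest unadjusted p in each oncogene comparison with control. Depth limits the precision mainly of Stc2 in B cells.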

Additional observations from a re-analysis of the deposited data

Results flagged for a closer look

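Several ATF4-branch genes differed in opposite directions, by at least 1 on the log2 scale each way, between single libraries of the same comparison. These differences between populations or arms were not tested, since each population and arm has 1 library. In Her2 against control, Cth stood at 2.56 in B and −1.01 in L cells, and Stc2 at 2.28 in B and −2.58 in bi cells. The Stc2 value in B cells rests on 24 reads with Her2 and 4 in the control. In MYC against Her2, Trib3 stood at 1.07 in bi and −4.73 in B cells. In bi against B the sign turned between arms for 6 genes. Atf5 stood at 1.10 with MYC and −1.45 with Her2, Nupr1 at 1.13 and −1.69, Trib3 at 2.99 and −2.81, Mthfd2 at 1.29 and −1.76, and Chac1 at 1.54 and −2.91. Asns stood at −1.76 with Her2 and 1.26 in control cells. No ER-branch gene met this condition.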

How the results depend on the processing

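Branch medians kept their sign in DESeq2 and with its size factors. With TPM and limma (pseudocount 1) the median of all genes shifted to −0.15 in MYC against control and −0.11 in Her2 against control. In Her2 against control the ER median was then −0.07. The number of members called moved as follows. In MYC against control it was 5 with DESeq2, 6 without the filter on low counts, 6 with TPM at either pseudocount (1 or 0.1) and 6 from only the 6 libraries compared (Stc2 rose and 5 fell). All genes called numbered 87 in the main fit, and 966, 944, 845 or 847, and 680 in these settings, in that order. In Her2 against control it was 1 with DESeq2 and 3 without the filter. All genes called there numbered 5 in the main fit, 509 with DESeq2 and 619 without the filter. In MYC against Her2 it was 6 with DESeq2, 10 without the filter, 5 with TPM at either pseudocount, 0 with TPM unfiltered and 1 from 6 libraries. In L against B, with 6 calls, it was 7 with DESeq2, 9 without the filter, 5 with TPM at either pseudocount and 3 with TPM unfiltered. In bi against B it was 2 with DESeq2, 5 without the filter, 2 with TPM at either pseudocount and 0 with TPM unfiltered. In the main fit, 2.44% of all genes rose and 2.13% fell in MYC against Her2. The shares were 11.5% and 9.26% in L against B and 7.88% and 5.11% in bi against B. Counts over all genes in the other settings are not given for these comparisons. Changes in the member counts there are therefore not read as particular to the members. Leaving out 1 library at a time gave 0 to 3, 0 to 1, 0 to 7, 2 to 6 and 0 to 4 calls in these 5 comparisons, in that order, and 0 in bi against L. All genes called in those fits ran from 6 to 492 in MYC against control, so the calls of members moved along with those of all genes. The ER-branch median ranged from −0.82 to −0.47 in MYC against control, and the ATF4-branch median from −0.22 to 0.43 there, from −0.14 to 0.94 in Her2 against control, from −1.01 to 0.10 in MYC against Her2 and from −0.26 to 0.61 in L against B. Herpud1 in Her2 against control ranged from −0.97 to 0.03, turning positive without L Her2. The cause of these shifts was not tested. The labels give no replicate numbers, and population already serves as the block in each comparison of arms.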
